A study of Homo sapiens with 24 samples.

Results

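The NRF2 antioxidant and pentose phosphate genes are a listed set of 37 genes of the NRF2 pathway, of glutathione, thioredoxin and peroxide metabolism and of NADPH supply. Members were taken wherever the platform annotation gave a probe set a single gene symbol, which held for 34 of the 37 genes, among 18417 genes tested in all. AKR1B1, AKR1A1 and PRDX5 had no such probe set and were not analysed here. Total RNA was measured on 24 Affymetrix Human Gene ST arrays from THP-1, a human monocytic leukaemia line, which carried a lentiviral (pSLIK) cassette. In the NOD1 line the cassette held a 3X FLAG-tagged NOD1 coding sequence behind a tetracycline-inducible promoter, in the NLRP4 line a 3X FLAG-tagged NLRP4 coding sequence, and in the vector line nothing beyond the vector. Each line was measured with doxycycline (DOX, 1 µg/ml for 6 h) and without it, in 4 arrays for each of the 6 groups. All groups had been transduced at low copy and selected with G418, and the labels do not say how many separate selections a line stands for. NOD1 senses pieces of bacterial peptidoglycan in the cytosol, and NLRP4 is another receptor of the NLR family.

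NRF2, the protein of NFE2L2, is a transcription factor that pairs with small MAF proteins at antioxidant response elements and switches on genes for glutathione and thioredoxin metabolism, detoxification and NADPH production. KEAP1 holds NRF2 and passes it to a CUL3 ubiquitin ligase for degradation until oxidants or electrophiles modify KEAP1, and BACH1 competes for the same DNA elements as a repressor. Much of the control of NRF2 acts on the protein and is not read by a transcript array. In monocytes and macrophages this programme is known for limiting damage from the oxidants these cells produce.

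The NOD1 probe set read higher with DOX than without DOX in the NOD1 line by 4.02 on the log2 scale, and the NLRP4 probe set did so in the NLRP4 line by 3.84, as the labels state. Without DOX, NOD1 was already higher in the NOD1 line than in the vector line, by 0.40 (SE 0.135, adjusted p = 0.0299), and NLRP4 was higher in the NLRP4 line than in the vector line, where it read dim, by 1.17 (SE 0.188, adjusted p = 0.0405). Correlations across genes between arrays of one group ran from 0.982 to 0.993, and deposited array medians ran from 8.06 to 8.85. The arrays are numbered with each line in its own block and, within a line, the arrays without DOX first. The numbers thus follow the groups, and the titles do not say what order they stand for. Line and DOX therefore cannot be told apart from place in that order. Whether wells of a group were separate cultures is not stated in the labels, so a p-value here measures well-to-well spread, which may be technical. Of the myeloid markers that define THP-1, LYZ, PTPRC, CD68 and TYROBP lay at or above the 88th percentile of all genes, while CD14, MPO and ITGAM lay between the 25th and 31st. Of 12 measured monocyte and myeloid markers, 8 were higher and 1 (PTPRC) lower in the NOD1 line than in the vector line with DOX, and 9 were higher and 1 (PTPRC) lower without DOX. The mean log2 level of these markers ran from 10.24 to 10.44 on the arrays of the NOD1 line with DOX and from 10.32 to 10.45 without DOX, against 9.88 to 9.94 in the vector line with DOX and 9.84 to 10.08 without DOX. Of 16 measured markers of other cell types, none was higher in the NOD1 line than in the vector line, and 3 were lower with DOX (NCAM1, EPCAM and KRT8) and 2 without DOX (NCAM1 and EPCAM). NCAM1 differed by -2.43 (SE 0.14, adjusted p = 3.1e-11) with DOX and by -2.50 (SE 0.14, adjusted p = 1.91e-11) without DOX. The mean log2 level of these 16 ran from 8.12 to 8.24 in the NOD1 line with DOX and 8.13 to 8.24 without DOX, against 8.40 to 8.52 in the vector line with DOX and 8.42 to 8.55 without DOX. NCAM1 and EPCAM had the largest gaps, and the median difference over the 16 was only -0.09 with DOX and -0.05 without DOX. PECAM1, also of this list, lay at the 96th percentile of all genes. The part of these marker differences in the results below was not tested. In bulk RNA, a change in the share of cells that express a gene and a change in the level per cell cannot be told apart.

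The promoters of the members were searched for TGACNNNGC, the core of the antioxidant response element, on both strands of a window that reached 250 bases before to 50 bases after each annotated start (RefSeq, GRCh38.p14). The motif can overlap the AP-1 motif TGACTCA, and the matches shown for ME1 and GSTP1 do. Of 28 measured members with a window, 8 (28.6%) held a match in at least 1 window, against 4384 of 27305 genes in all (16.1%), and 13.3% of all 35116 windows held one. These 8 were PGD, ME1, GSTP1, TXNRD1, KEAP1, MGST1, GCLM and EPHX1. The match in MGST1 was not upstream of its start. Matches are shown for members that were higher in the NOD1 line (PGD, ME1, GSTP1, TXNRD1 and KEAP1) and for those that were not called against the vector line (GCLM and EPHX1), each as 30 bases, 5′ to 3′ on the strand of the gene, with the match in capitals. Those that read GC first carry the motif on the other strand. A match is a description of letters in a window and shows no binding.
PGD: gcctcgccgggGCAATGTCAtctaggtgct
ME1: atctcctgccaTGACTCAGCgcttctcgca
GSTP1: ggccggcgccgTGACTCAGCactggggcgg
TXNRD1, first start: tacacgggctaTGACTTCGCtgttgtcacc
TXNRD1, second start: agtggatttctGCTTTGTCAttctgactct
KEAP1: cgcccggctctGCTTAGTCAtggtgacctg
GCLM: ctacgatttctGCTTAGTCAttgtcttcca
EPHX1: atgagattggcTGACTTGGCaggactgtgc
The PGD stretch lies at chr1:10398852-10398881 (+), with its match beginning 201 bases before the start, and the ME1 stretch at chr6:83431170-83431199 (−), 137 bases before the start. The GSTP1 stretch lies at chr11:67583735-67583764 (+), 66 bases before the start. Those of TXNRD1 lie at chr12:104215669-104215698 (+), 99 bases before the first start, and chr12:104286919-104286948 (+), 102 bases before the second. The KEAP1 stretch, the nearer of its 2 matches, lies at chr19:10502784-10502813 (−), 31 bases before the start, GCLM at chr1:93909446-93909475 (−), 34 bases, and EPHX1 at chr1:225825265-225825294 (+), 78 bases. ME1 and GSTP1 share the match TGACTCAGC, and KEAP1 and GCLM share GCTTAGTCA. Of the 14 members with a window that were higher in the NOD1 line both with and without DOX, 5 (35.7%) held a match. Of the 9 with a window that were called in neither comparison, 2 (22.2%) held one. The difference between these shares was not tested. GSR, PRDX1, PRDX6, SOD1, AKR1B10 and ABCC1 had no window. NQO1, GCLC, SRXN1 and AKR1C1 held no match in theirs, and sequence outside the windows was not searched.

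The question of the line comparison was which members differed in cells that carry the NOD1 cassette. The members were chosen with earlier results of these data known, so their counts describe the list and do not test it. With DOX, 19 of 34 members were higher and 2 lower in the NOD1 line than in the vector line at an adjusted p under 0.05, where 25.8% of all genes passed the test, 13.6% higher and 12.2% lower. Without DOX, 18 were higher and 1 lower, where 24.9% of all genes passed, 13.0% higher and 11.9% lower. Among all called genes, 52.7% were higher with DOX and 52.2% without DOX, and these shares depended on the scaling, at 64.8% and 63.2% with normalization over all probe sets and 48.5% and 36.5% with arrays centred on their medians. The median member difference was 0.34 on the log2 scale in each comparison, against 0.02 over all genes with DOX and 0.03 without DOX. These comparisons share no array, but they set the same lines against each other in the same fit, with a shared normalization and spread. They are therefore not independent tests of the line difference. In both, 17 members were higher, BACH1 was lower and 12 members were not called. The share of all genes called in both was not counted. The 17 were KEAP1, MAFG, SQSTM1, NQO1, AKR1C1, AKR1C2, AKR1C3, GSR, GPX1, GPX4, GSTP1, TXNRD1, PRDX1, PRDX6, PGD, TALDO1 and ME1. All 4 arrays of the NOD1 line lay above all 4 of the vector line for 18 members with DOX, where 15.5% of all genes did so, and for 12 members without DOX, where 11.1% did. Differences of at least 1.5-fold upward were called for 10 members in each comparison, where 4.25% of all genes had one with DOX and 3.67% without DOX. Leaving out the 4 arrays of lowest deposited median, a choice made after seeing the data, left 18 called members with DOX and 14 without DOX. Centring arrays on their medians left 17 with DOX and 12 without DOX.

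**Figure D1:**
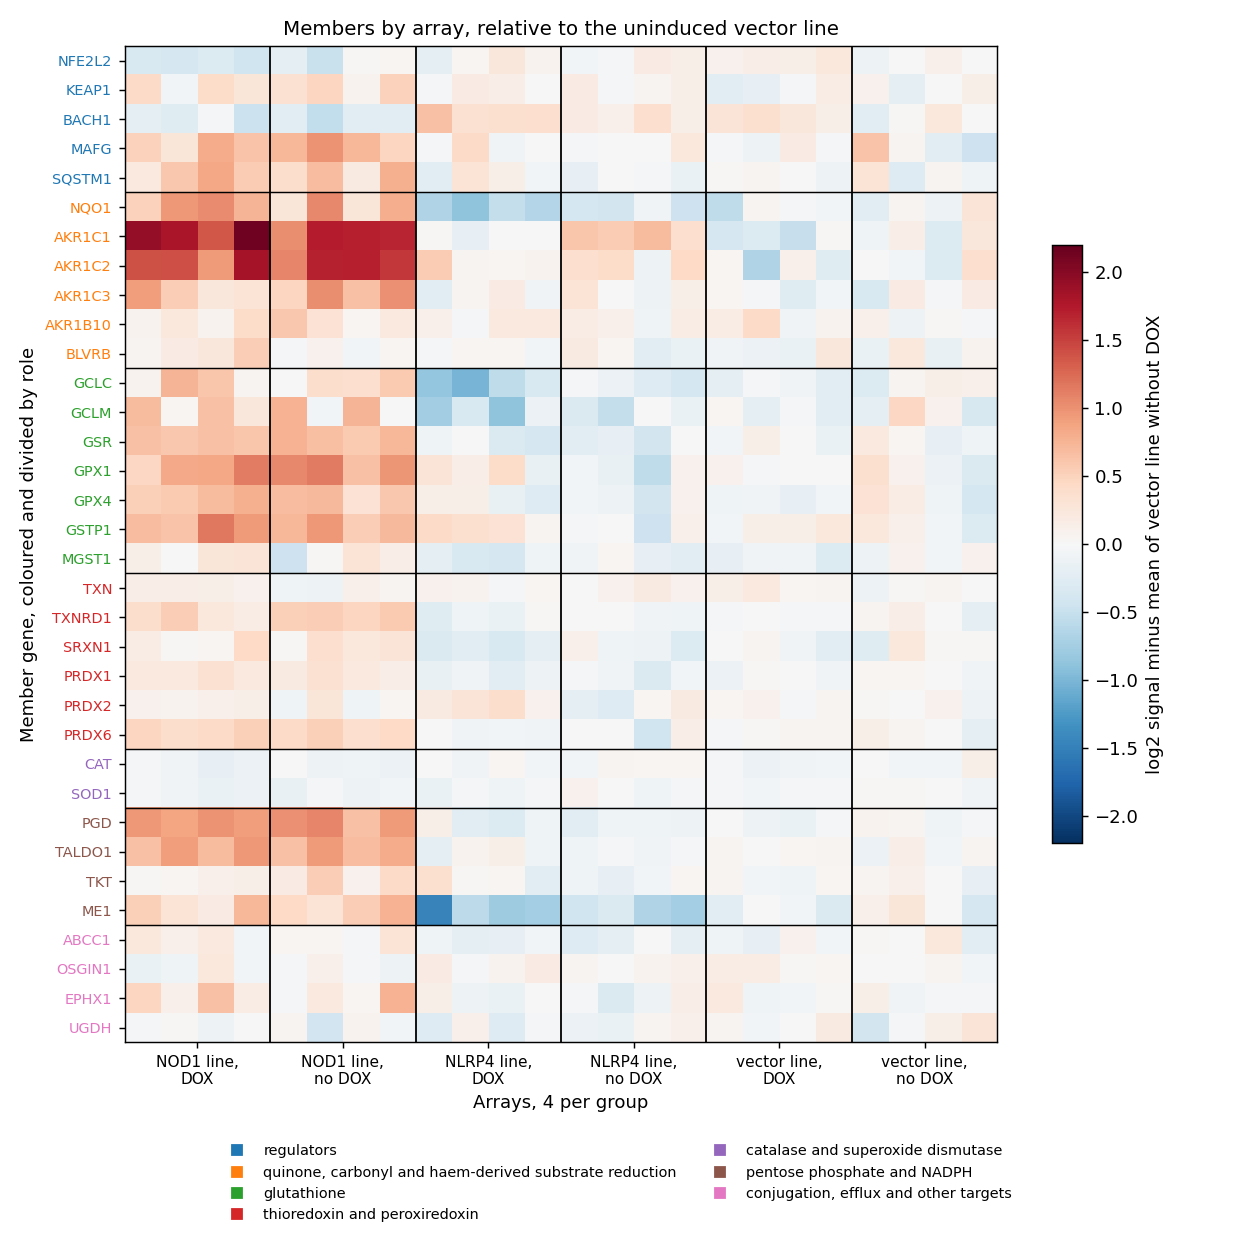
Log2 signal of the 34 measured members on each of the 24 arrays, drawn as the difference from the mean of the 4 arrays of the vector line without DOX (colour scale in log2 units, red higher, blue lower), with members divided by role. The 8 arrays of the NOD1 line, at left, are redder than the rest for AKR1C1, AKR1C2, PGD, TALDO1, GPX1 and GSR. For BACH1 the means of the NOD1 line are the lowest, but array 1 of the vector line without DOX (log2 signal 10.08) lies within the range of the NOD1 arrays.

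Among the 5 regulators, the transcripts of NRF2 and of its competitor BACH1 were lower in the NOD1 line than in the vector line with DOX, while MAFG, SQSTM1 and KEAP1 were higher with and without DOX. NFE2L2, which encodes NRF2, had log2 signals of 11.75, 11.73, 11.79 and 11.65 in the NOD1 line with DOX, against 12.18, 12.24, 12.22 and 12.32 in the vector line with DOX. All 4 NOD1 arrays were lower, at a difference of -0.51 (SE 0.104, adjusted p = 0.00064), a level 1.42-fold lower. Without DOX the values were 11.88, 11.60, 12.11 and 12.13 in the NOD1 line, against 11.98, 12.10, 12.20 and 12.09 in the vector line, which overlapped, at -0.16 (SE 0.104, adjusted p = 0.291). BACH1, the repressor at antioxidant response elements, had 10.12, 10.06, 10.29 and 9.85 in the NOD1 line with DOX, against 10.61, 10.68, 10.58 and 10.46 in the vector line with DOX. The groups did not overlap, and the difference was -0.50 (SE 0.106, adjusted p = 0.000804). Without DOX, BACH1 had 10.08, 9.78, 10.08 and 10.07 in the NOD1 line, against 10.08, 10.34, 10.55 and 10.32 in the vector line, at -0.32 (SE 0.106, adjusted p = 0.029), with 2 NOD1 arrays level with the lowest vector array to the printed precision.

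MAFG, a small MAF partner of NRF2, had 9.98, 9.74, 10.30 and 10.10 in the NOD1 line with DOX, against 9.44, 9.37, 9.66 and 9.45 in the vector line with DOX. Every NOD1 array was higher, at 0.55 (SE 0.17, adjusted p = 0.0174). Without DOX, MAFG had 10.21, 10.47, 10.21 and 9.94, against 10.11, 9.53, 9.24 and 9.02 in the vector line, where 1 vector array reached into the NOD1 range, at 0.73 (SE 0.17, adjusted p = 0.00216). MAFG has 3 single-symbol probe sets, and the others differed by 0.28 with DOX and 0.43 without DOX (both called) and by 0.14 and 0.11 (neither called) on the same scale, normalized over all probe sets. SQSTM1 (p62), an autophagy receptor that binds KEAP1, had 10.04, 10.42, 10.68 and 10.39 in the NOD1 line with DOX, against 9.86, 9.89, 9.82 and 9.72 in the vector line with DOX. No array of the NOD1 line overlapped the vector line, and the difference was 0.56 (SE 0.141, adjusted p = 0.00399). Without DOX, SQSTM1 had 10.22, 10.51, 10.03 and 10.61, against 10.14, 9.55, 9.90 and 9.74 in the vector line, with 1 vector array inside the NOD1 range, at 0.51 (SE 0.141, adjusted p = 0.00795). KEAP1 had 9.66, 9.19, 9.65 and 9.51 in the NOD1 line with DOX, against 9.00, 9.07, 9.21 and 9.41 in the vector line with DOX. The groups overlapped, at 0.33 (SE 0.113, adjusted p = 0.0327). Without DOX, KEAP1 had 9.59, 9.72, 9.32 and 9.75, against 9.34, 9.04, 9.24 and 9.37 in the vector line, which also overlapped, at 0.35 (SE 0.113, adjusted p = 0.0251).

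Several regulator calls were lost when 1 array was left out or the processing was changed. The KEAP1 difference with DOX was no longer called without NOD1 array 1 (adjusted p = 0.106), 3 (0.103) or 4 (0.0636), or without vector array 1 (0.118), 2 (0.0918) or 3 (0.0513), with the values as deposited (0.165) and with only the arrays compared (0.0748). Without DOX it was lost without NOD1 array 2 (0.0817) or 4 (0.088), or vector array 2 (0.1) or 3 (0.052), and with only the arrays compared (0.0695). The BACH1 difference without DOX was lost without NOD1 array 2 (0.125) or vector array 2 (0.0573), 3 (0.126) or 4 (0.0556), with the deposited values (0.195), with normalization over all probe sets (0.0615), fitted on the compared arrays alone (0.0975) and without the 4 arrays of lowest deposited median (0.164). MAFG with DOX was lost without NOD1 array 3 (0.069) and with the mean of its probe sets (0.0568). Without the 4 arrays of lowest deposited median, KEAP1 was not called with DOX (0.0595) or without DOX (0.244), nor MAFG with DOX (0.0524), nor SQSTM1 without DOX (0.138). The NFE2L2 difference with DOX, and that of BACH1 with DOX, kept the call under each alternative run, including each array left out.

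**Figure D2:**
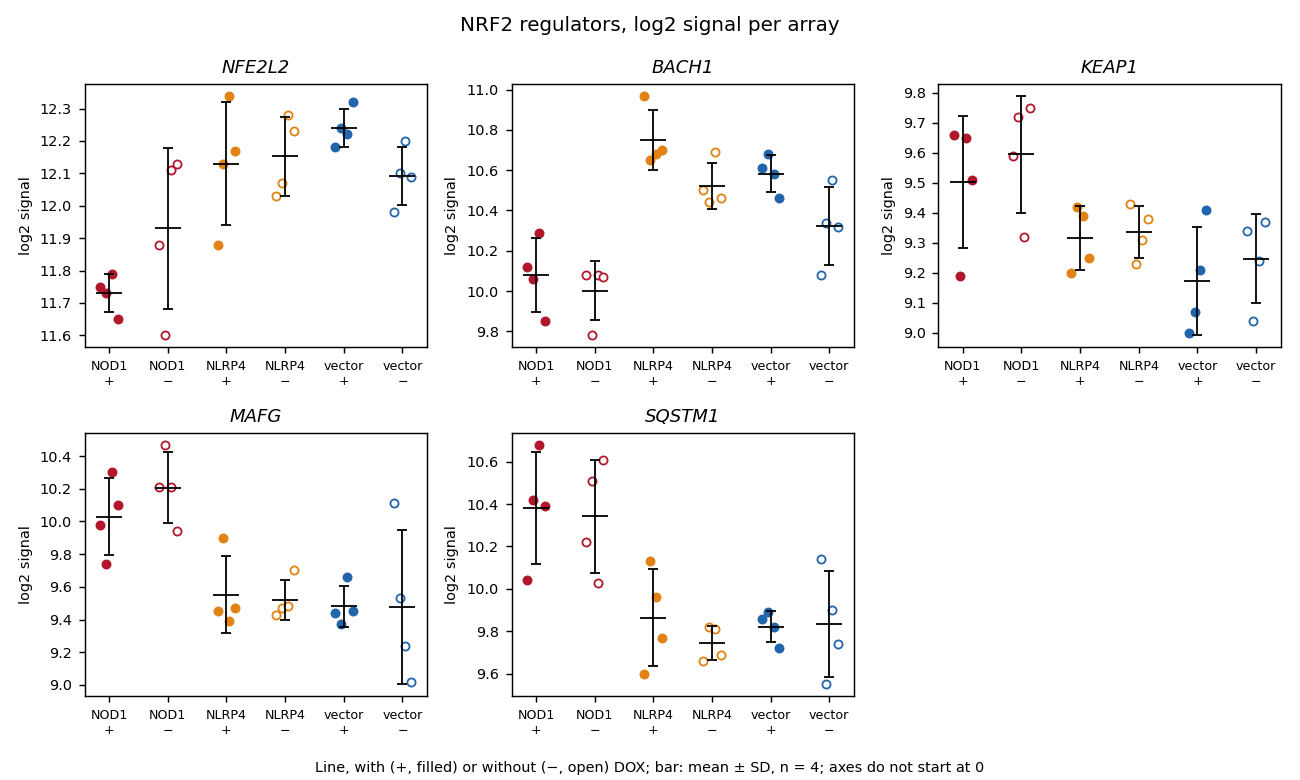
Log2 signal of NFE2L2, BACH1, KEAP1, MAFG and SQSTM1 on each array (points) with the mean ± SD of 4 arrays per group (bars), for the NOD1, NLRP4 and vector lines with DOX (+, filled) and without DOX (−, open). NFE2L2 sits at 11.65 to 11.79 in the NOD1 line with DOX, below the 12.18 to 12.32 of the vector line with DOX, and the group means of BACH1 are lowest in the NOD1 line.

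Of 6 members that reduce quinones, carbonyls and related substrates, 4 were higher in the NOD1 line than in the vector line both with and without DOX, and AKR1C1 and AKR1C2 had the largest differences of the 34 members. AKR1C1, which reduces ketosteroids and lipid aldehydes, had 10.11, 9.98, 9.55 and 10.32 in the NOD1 line with DOX, against 7.81, 7.87, 7.67 and 8.21 in the vector line with DOX. The groups were far apart, at 2.10 (SE 0.161, adjusted p = 2.53e-09), or 4.28-fold. Without DOX, AKR1C1 had 9.20, 9.90, 9.88 and 9.85, against 8.08, 8.32, 7.88 and 8.43 in the vector line, at 1.53 (SE 0.161, adjusted p = 2.25e-07), or 2.88-fold. AKR1C2, a close paralogue with the same kind of substrate, had 9.58, 9.61, 9.13 and 10.01 in the NOD1 line with DOX, against 8.22, 7.53, 8.30 and 7.92 in the vector line with DOX. All NOD1 arrays were above all vector arrays, at 1.59 (SE 0.195, adjusted p = 1.66e-06). Without DOX, AKR1C2 had 9.26, 9.87, 9.90 and 9.74, against 8.18, 8.13, 7.88 and 8.55 in the vector line, at 1.51 (SE 0.195, adjusted p = 3.31e-06), again without overlap. AKR1C3, which acts on steroids and prostaglandins, read near the low end of the arrays. It had 7.82, 7.44, 7.15 and 7.19 in the NOD1 line with DOX, against 6.94, 6.86, 6.63 and 6.83 in the vector line with DOX, at 0.59 (SE 0.15, adjusted p = 0.00462). Without DOX it had 7.37, 7.92, 7.54 and 7.90, against 6.56, 7.08, 6.86 and 7.08 in the vector line, at 0.79 (SE 0.15, adjusted p = 0.000322). All 4 of these group means lay under 7.80, the 25th percentile of all gene means, so no fold is given for AKR1C3. The AKR1C genes are near-identical in sequence, so their signals may be mixed. A second single-symbol probe set of AKR1C1 differed by 0.16 with DOX (adjusted p = 0.433) and by 0.45 without DOX (adjusted p = 0.0159), less than the probe set used above. The AKR1C3 call with DOX was lost with the deposited values (0.40, adjusted p = 0.103) and with median-centred arrays (0.45, adjusted p = 0.0502).

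NQO1, the quinone reductase that is the textbook NRF2 target, had 11.03, 11.48, 11.56 and 11.27 in the NOD1 line with DOX, against 9.97, 10.59, 10.50 and 10.47 in the vector line with DOX. The groups did not overlap, and NQO1 was 1.93-fold higher at 0.95 (SE 0.166, adjusted p = 0.000114). Without DOX, NQO1 had 10.80, 11.58, 10.80 and 11.32, against 10.30, 10.59, 10.41 and 10.81 in the vector line. The highest vector array passed the 2 lowest NOD1 arrays, and the difference was 0.60 (SE 0.166, adjusted p = 0.00885). This call was lost without NOD1 array 2 (0.45, adjusted p = 0.0549), with median-centred arrays (0.48, adjusted p = 0.1) and without the 4 dimmest arrays by deposited median (0.46, adjusted p = 0.0897). BLVRB, a biliverdin and flavin reductase, was not called, at 0.29 (adjusted p = 0.0671) with DOX and 0.01 (adjusted p = 0.96) without DOX. AKR1B10, another aldo-keto reductase and also near the low end, was not called, at 0.04 (adjusted p = 0.83) with DOX and 0.30 (adjusted p = 0.0572) without DOX.

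In the glutathione group, GSR, GPX1, GPX4 and GSTP1, which use or regenerate glutathione, were higher in the NOD1 line with and without DOX, and of the ligase that makes its precursor GCLC was higher with DOX. Of 7 members, 6 were higher with DOX and 4 without DOX, and none was lower. GSR, which reduces oxidized glutathione with NADPH, had 12.59, 12.53, 12.59 and 12.55 in the NOD1 line with DOX, against 11.89, 12.07, 11.94 and 11.79 in the vector line with DOX. It differed by 0.64 (SE 0.097, adjusted p = 2.18e-05), with the 4 NOD1 arrays closer to each other than to any vector array. Without DOX, GSR had 12.71, 12.61, 12.52 and 12.67, against 12.16, 11.99, 11.77 and 11.85 in the vector line, at 0.69 (SE 0.097, adjusted p = 1.04e-05). GPX1, the main cytosolic glutathione peroxidase, had 12.61, 12.98, 13.00 and 13.27 in the NOD1 line with DOX, against 12.24, 12.13, 12.15 and 12.15 in the vector line with DOX. That was 1.74-fold higher, at 0.80 (SE 0.158, adjusted p = 0.000452), without overlap. Without DOX, GPX1 had 13.20, 13.30, 12.79 and 13.12, against 12.50, 12.25, 12.02 and 11.83 in the vector line, at 0.95 (SE 0.158, adjusted p = 6.87e-05). A second GPX1 probe set differed by 0.28 with DOX (adjusted p = 0.167) and by 0.24 without DOX (adjusted p = 0.27), so the probe sets disagree on the call.

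GPX4, which reduces lipid hydroperoxides in membranes, had 12.33, 12.38, 12.49 and 12.59 in the NOD1 line with DOX, against 11.71, 11.72, 11.62 and 11.75 in the vector line with DOX. No arrays overlapped, at 0.74 (SE 0.132, adjusted p = 0.000138). Without DOX, GPX4 had 12.48, 12.51, 12.12 and 12.40, against 12.12, 11.97, 11.71 and 11.41 in the vector line, where the highest vector array equalled the lowest NOD1 array to the printed precision, at 0.58 (SE 0.132, adjusted p = 0.00189). With arrays centred on their medians that difference was 0.45 (adjusted p = 0.0748). GSTP1, a glutathione S-transferase whose promoter holds the match shown above, had 12.56, 12.51, 13.05 and 12.82 in the NOD1 line with DOX, against 11.83, 12.02, 12.02 and 12.12 in the vector line with DOX. It was 1.67-fold higher, at 0.74 (SE 0.136, adjusted p = 0.000207), and every NOD1 array exceeded every vector array. Without DOX, GSTP1 had 12.62, 12.84, 12.42 and 12.59, against 12.12, 12.00, 11.83 and 11.59 in the vector line, at 0.74 (SE 0.136, adjusted p = 0.000239).

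GCLC and GCLM are the catalytic and modifier subunits of glutamate-cysteine ligase, the rate-limiting step of glutathione synthesis. GCLC had 10.16, 10.82, 10.68 and 10.14 in the NOD1 line with DOX, against 9.88, 10.06, 10.00 and 9.84 in the vector line with DOX, at 0.50 (SE 0.158, adjusted p = 0.0194), without overlap. Without DOX it was not called, at 0.34 (SE 0.158, adjusted p = 0.135). The call with DOX was lost without NOD1 array 2 (0.38, adjusted p = 0.0943) or 3 (0.43, adjusted p = 0.0727) or vector array 4 (0.47, adjusted p = 0.0548). GCLM, which holds the match shown above, was not called, at 0.52 (SE 0.208, adjusted p = 0.0715) with DOX and 0.37 (SE 0.208, adjusted p = 0.225) without DOX. Its arrays in the NOD1 line were widely spread, from 9.39 to 10.05 with DOX and from 9.29 to 10.12 without DOX. MGST1, a membrane-bound glutathione transferase, was higher with DOX, at 0.32 (SE 0.119, adjusted p = 0.0458), and stood at 0.00 (adjusted p = 0.995) without DOX. The MGST1 call was lost on leaving out any of 7 of the 8 arrays compared, with adjusted p-values up to 0.13 and differences of 0.28 to 0.35, and leaving out NOD1 array 2 kept it. It was also lost under 5 other alternatives, with adjusted p-values of 0.0513 to 0.157.

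In the thioredoxin and peroxiredoxin group, 3 of 6 members were higher in both comparisons and none was lower. TXNRD1, the NADPH-dependent thioredoxin reductase, had 11.71, 11.87, 11.55 and 11.49 in the NOD1 line with DOX, against 11.30, 11.32, 11.28 and 11.30 in the vector line with DOX, at 0.35 (SE 0.084, adjusted p = 0.00244). Without DOX it had 11.84, 11.87, 11.80 and 11.89, against 11.38, 11.47, 11.32 and 11.11 in the vector line, at 0.53 (SE 0.084, adjusted p = 4.4e-05). Neither pair of groups overlapped. With arrays centred on their medians the TXNRD1 differences were 0.34 (adjusted p = 0.101) with DOX and 0.38 (adjusted p = 0.0712) without DOX, and with the values as deposited 0.29 (adjusted p = 0.0506) with DOX. PRDX6, a peroxiredoxin that also reduces phospholipid hydroperoxides, differed by 0.43 (SE 0.092, adjusted p = 0.00104) with DOX and 0.44 (SE 0.092, adjusted p = 0.000886) without DOX, with no overlap in either. PRDX1, an abundant cytosolic peroxiredoxin, differed by 0.29 (SE 0.072, adjusted p = 0.0035) with DOX and 0.22 (SE 0.072, adjusted p = 0.0245) without DOX. Centring on array medians gave 0.33 (adjusted p = 0.184) for PRDX6 without DOX, and for PRDX1 0.43 (adjusted p = 0.0669) with DOX and 0.13 (adjusted p = 0.648) without DOX. The PRDX1 call without DOX was also lost without NOD1 array 2 (0.18, adjusted p = 0.0951) or vector array 3 (0.22, adjusted p = 0.0523) or 4 (0.20, adjusted p = 0.0809). It stood at 0.25 (adjusted p = 0.0931) with the deposited values, 0.23 (adjusted p = 0.107) fitted on the compared arrays alone and 0.19 (adjusted p = 0.114) without the 4 arrays of lowest deposited median. TXN (thioredoxin), SRXN1 (sulfiredoxin, which repairs overoxidized peroxiredoxins) and PRDX2 were not called, with differences of 0.03, 0.23 and 0.07 with DOX and -0.01, 0.23 and 0.03 without DOX.

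Catalase (CAT) and the cytosolic superoxide dismutase SOD1, which remove hydrogen peroxide and superoxide without NADPH, were not called. CAT differed by -0.02 with DOX (95% interval -0.15 to 0.11) and SOD1 by -0.06 (95% interval -0.18 to 0.07). Without DOX the differences were -0.08 for CAT (95% interval -0.21 to 0.05) and -0.09 for SOD1 (95% interval -0.22 to 0.03). Group means ran from 13.26 to 13.38 for CAT, 13.87 to 13.96 for SOD1 and 13.79 to 13.93 for TXN, near the high end of the arrays. Whether signals that high understate a difference was not tested, so these values do not show equal transcript levels.

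Of the 4 pentose phosphate and NADPH members, 3 were higher in the NOD1 line with DOX and 4 without DOX, and PGD had the lowest adjusted p of all members without DOX. PGD, the 6-phosphogluconate dehydrogenase that yields NADPH in the oxidative branch, had 12.19, 12.10, 12.23 and 12.16 in the NOD1 line with DOX, against 11.25, 11.12, 11.09 and 11.22 in the vector line with DOX. The arrays did not overlap, and PGD was 2-fold higher, at 1.00 (SE 0.092, adjusted p = 3.28e-08). Without DOX, PGD had 12.25, 12.32, 11.89 and 12.18, against 11.31, 11.29, 11.15 and 11.20 in the vector line, at 0.92 (SE 0.092, adjusted p = 1.06e-07). TALDO1, the transaldolase of the non-oxidative branch, had 12.50, 12.77, 12.54 and 12.80 in the NOD1 line with DOX, against 11.91, 11.84, 11.89 and 11.91 in the vector line with DOX. Again no arrays overlapped, at 0.76 (SE 0.089, adjusted p = 9.28e-07). Without DOX, TALDO1 had 12.49, 12.78, 12.52 and 12.66, against 11.72, 11.99, 11.78 and 11.90 in the vector line, at 0.76 (SE 0.089, adjusted p = 9.5e-07). ME1, the cytosolic malic enzyme, which makes NADPH outside the pentose phosphate pathway, had 10.51, 10.28, 10.17 and 10.71 in the NOD1 line with DOX, against 9.76, 9.97, 9.93 and 9.67 in the vector line with DOX, at 0.58 (SE 0.165, adjusted p = 0.00965). Every NOD1 array exceeded every vector array for ME1 in both comparisons. Without DOX, ME1 had 10.42, 10.28, 10.52 and 10.75, against 10.10, 10.25, 9.98 and 9.61 in the vector line, at 0.51 (SE 0.165, adjusted p = 0.025). That ME1 call was lost without NOD1 array 4 (0.42, adjusted p = 0.0929) or vector array 4 (0.38, adjusted p = 0.117) and with median-centred arrays (0.43, adjusted p = 0.125). TKT, the transketolase that works beside TALDO1, was called without DOX, at 0.31 (SE 0.106, adjusted p = 0.0348), and stood at 0.09 (adjusted p = 0.61) with DOX. The TKT call was lost without NOD1 array 2 (0.23, adjusted p = 0.148) or 4 (0.27, adjusted p = 0.104) or vector array 3 (0.31, adjusted p = 0.0648) or 4 (0.25, adjusted p = 0.124). It was also lost with centred arrays (0.159), with only the arrays compared (0.111) and without the 4 arrays of lowest deposited median (0.147).

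**Figure D3:**
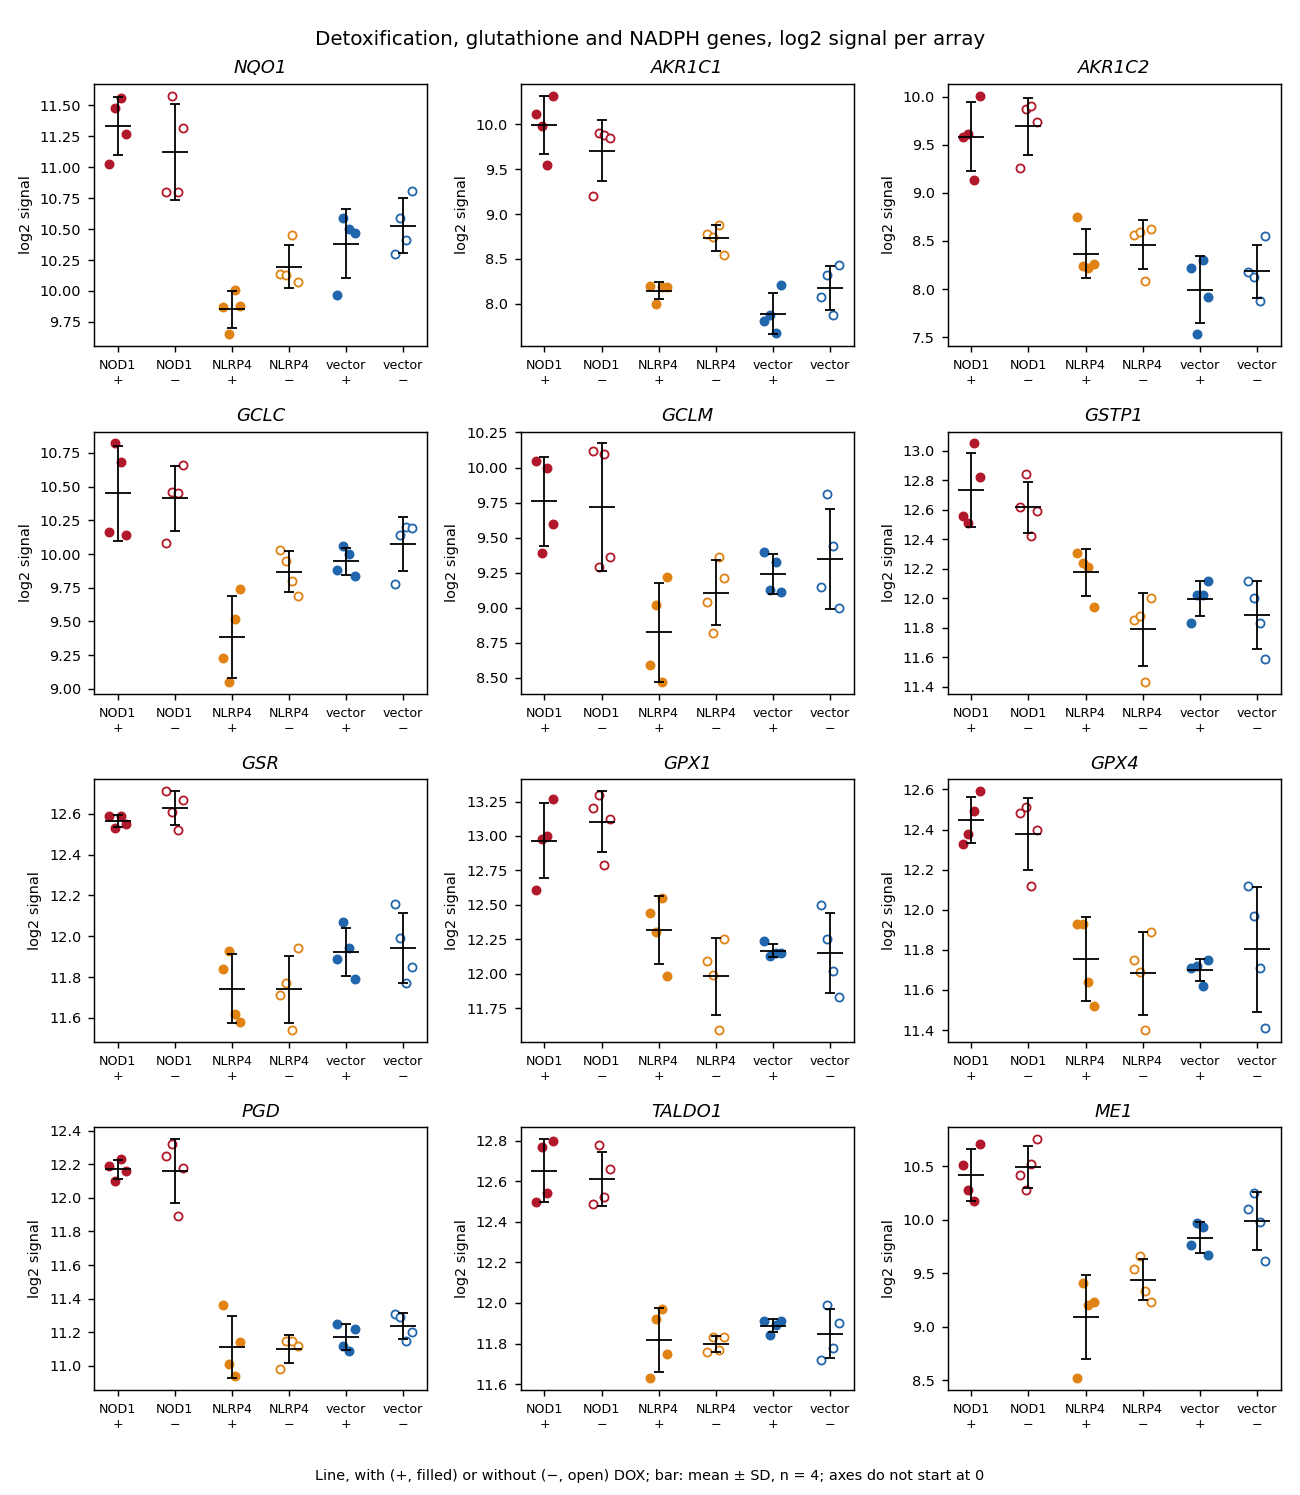
Log2 signal of 12 members on each array (points) with the mean ± SD of 4 arrays per group (bars), for the NOD1, NLRP4 and vector lines with DOX (+, filled) and without DOX (−, open). PGD lies at 11.89 to 12.32 on the 8 arrays of the NOD1 line and at 10.94 to 11.36 on the 16 arrays of the other lines, while GCLM arrays overlap between the NOD1 and vector lines.

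The members for conjugation, efflux and other targets were not called in either comparison. ABCC1, an exporter of glutathione conjugates, differed by 0.19 (adjusted p = 0.195) with DOX and 0.09 (adjusted p = 0.583) without DOX. EPHX1, the microsomal epoxide hydrolase, had 9.79, 9.42, 9.96 and 9.47 in the NOD1 line with DOX, against 9.53, 9.21, 9.25 and 9.34 in the vector line with DOX, at 0.33 (adjusted p = 0.0976), with overlap. OSGIN1, an oxidative stress-induced growth inhibitor, and UGDH, which makes UDP-glucuronic acid for conjugation, differed by -0.12 and -0.08 with DOX and by -0.02 and -0.08 without DOX.

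**Figure D4:**
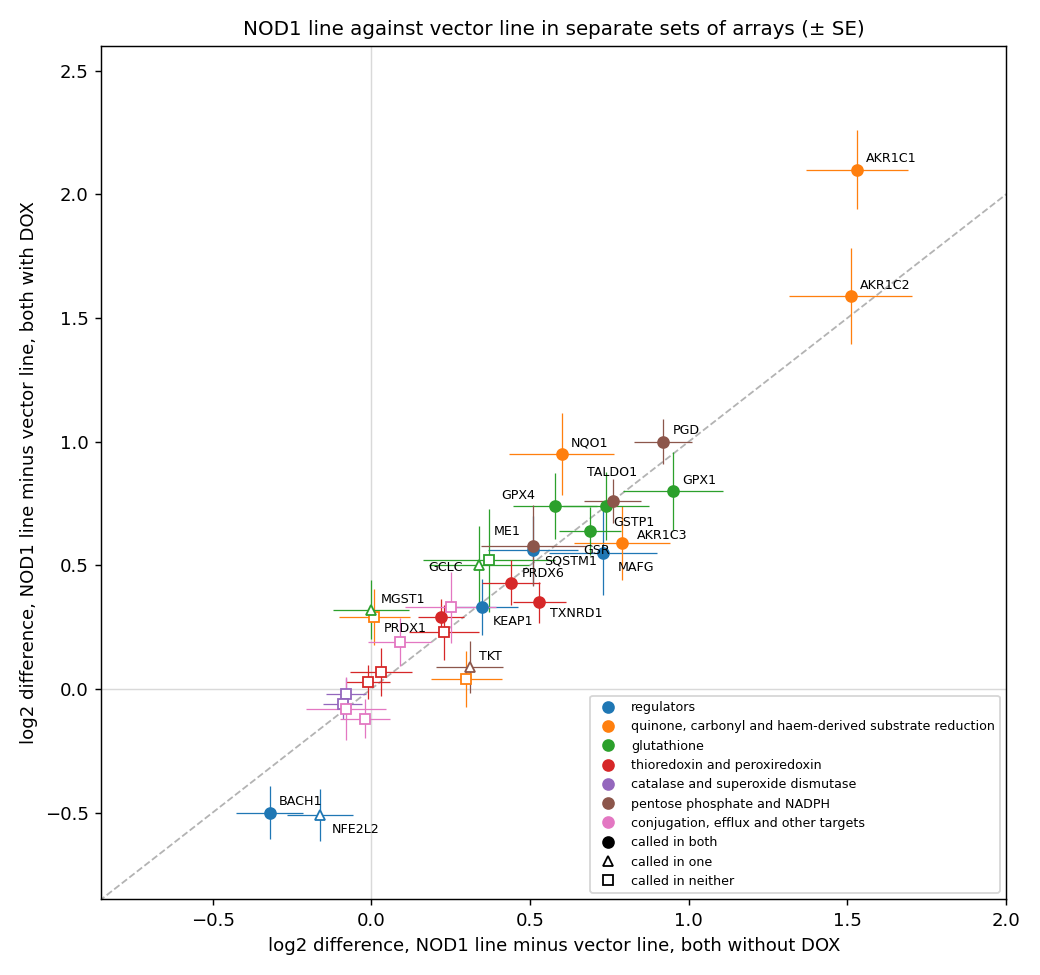
Log2 difference of the NOD1 line minus the vector line for each of the 34 members, without DOX on the horizontal axis and with DOX on the vertical axis, each from its own arrays (± SE, dashed line where both are equal). Filled circles mark members called in both comparisons, triangles in 1 and squares in neither, and AKR1C1 (2.10 with DOX and 1.53 without DOX) and AKR1C2 (1.59 with DOX and 1.51 without DOX) lie farthest from 0.

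Against the NLRP4 line, which carries the same vector with another receptor, the NOD1 line gave a similar count. With DOX, 20 members were higher and 2 lower in the NOD1 line than in the NLRP4 line, where 25.4% of all genes passed the test, 13.4% higher and 12.0% lower. Without DOX, 20 were higher and 1 lower, where 27.0% of all genes passed, 14.1% higher and 12.8% lower. The median member difference was 0.45 with DOX and 0.44 without DOX, against 0.02 and 0.04 over all genes. These comparisons use the same NOD1 arrays as those with the vector line, so they are not separate evidence. With the values as deposited, the median of all genes with DOX was itself shifted by -0.21, and that of the members stood at 0.38. The mean level of the myeloid markers, 10.24 to 10.45 over the arrays of the NOD1 line, was 9.94 to 10.08 in the NLRP4 line with DOX and 9.93 to 10.00 without DOX, and its part was not tested. Higher in each of the 4 comparisons of the NOD1 line with another line were 16 members, the 17 named above without KEAP1, and BACH1 was lower in each. The share of all genes called in each of the 4 was not counted. NFE2L2 was the other lower member with DOX, at -0.40 (SE 0.104, adjusted p = 0.00592). The largest difference with DOX was that of AKR1C1, at 1.85 (SE 0.161, adjusted p = 1.73e-08), and without DOX that of AKR1C2, at 1.23 (SE 0.195, adjusted p = 3.35e-05). Some members separated more clearly here than against the vector line. GCLM had 9.39 to 10.05 in the NOD1 line with DOX, against 8.47 to 9.22 in the NLRP4 line with DOX, at 0.94 (SE 0.208, adjusted p = 0.00145). Without DOX the GCLM difference was 0.61 (SE 0.208, adjusted p = 0.0313). SRXN1 differed by 0.44 (SE 0.111, adjusted p = 0.00408) with DOX and 0.33 (SE 0.111, adjusted p = 0.0274) without DOX. ME1 differed by 1.33 (SE 0.165, adjusted p = 2e-06) with DOX and 1.05 (SE 0.165, adjusted p = 2.99e-05) without DOX, and GCLC by 1.06 (SE 0.158, adjusted p = 1.9e-05) with DOX and 0.55 (SE 0.158, adjusted p = 0.011) without DOX. The GCLM call without DOX was lost without NOD1 array 1 (adjusted p = 0.12) or 3 (0.112) or NLRP4 array 1 (0.0703) or 2 (0.104), and that of SRXN1 without NOD1 array 2 (0.0955) or 4 (0.0653) or NLRP4 array 2 (0.0512), 3 (0.0539) or 4 (0.106). Of the 16, MAFG with DOX was lost without NOD1 array 1 (0.0579), 3 (0.133) or 4 (0.0884) or NLRP4 array 1 (0.0901), 3 (0.114) or 4 (0.0939), and AKR1C3 with DOX without NOD1 array 1 (0.0561). With the deposited values, calls with DOX were also lost for AKR1C3 at 0.18 (adjusted p = 0.401), MAFG at 0.40 (adjusted p = 0.0886) and SQSTM1 at 0.44 (adjusted p = 0.0505), and with the mean of a gene's probe sets for MAFG at 0.15 (adjusted p = 0.283) and GPX1 at 0.27 (adjusted p = 0.182). Median-centred arrays ended the calls with DOX of NFE2L2 at -0.19 (adjusted p = 0.42) and AKR1C3 (0.101). The same centring ended those without DOX of PRDX1 at 0.18 (adjusted p = 0.493), PRDX6 at 0.32 (adjusted p = 0.201), TXNRD1 (0.0935), GPX4 (0.0514), GCLC (0.0552), SRXN1 (0.0512) and TKT (0.0774). With the deposited array median as a covariate MAFG (0.088), AKR1C3 (0.0878), SRXN1 (0.0648) and MGST1 (0.0931) were lost with DOX. Without the 4 arrays of lowest deposited median, MAFG (0.0985) and MGST1 (0.0507) were lost with DOX, and MAFG (0.0597) and TKT (0.103) without DOX. Fitted on the compared arrays alone, GCLM (0.0526) and SRXN1 (0.0555) were lost without DOX.

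Between the NLRP4 line and the vector line no member was called by limma, with DOX (0.0380% of all genes called) or without DOX (0.0163%). At an unadjusted p under 0.05, 4 members (11.8%) passed with DOX, where 6.11% of all genes did, and 2 (5.88%) without DOX, where 4.96% did. ME1 had 8.52, 9.41, 9.20 and 9.23 in the NLRP4 line with DOX, against 9.76, 9.97, 9.93 and 9.67 in the vector line with DOX. All NLRP4 arrays lay lower, at -0.74 (SE 0.165, adjusted p = 0.183), short of the threshold, and an exact two-sided permutation test of the 4 arrays against 4 gave p = 0.0286, the smallest it can give. Without DOX, ME1 had 9.54, 9.66, 9.33 and 9.23, against 10.10, 10.25, 9.98 and 9.61 in the vector line, at -0.55 (adjusted p = 0.688), with overlap. GCLC with DOX stood at -0.56 (adjusted p = 0.517), NQO1 with DOX at -0.53 (adjusted p = 0.56) and PRDX2 with DOX at 0.21 (adjusted p = 0.814). AKR1C1 without DOX had 8.78, 8.74, 8.88 and 8.54 in the NLRP4 line, against 8.08, 8.32, 7.88 and 8.43 in the vector line, at 0.56 (adjusted p = 0.66). The interval of the NQO1 difference with DOX ran from -0.87 to -0.19 before adjustment, so these data do not show that the NLRP4 and vector lines were alike.

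DOX for 6 h did not bring a called change in any member. In the NOD1 line 0 members were called between DOX and no DOX, where 0.0109% of all genes were, in the NLRP4 line 0, where 0.0163% were, and in the vector line 0, where 0% were. In simulated data, the comparison in the NOD1 line recovered 16.4% of log2 changes of 0.3 and 59.8% of 0.5. A missing call therefore does not show that DOX left a member unchanged. At an unadjusted p under 0.05, 3 members (8.82%) passed in the NOD1 line, where 5.77% of all genes did. In the NLRP4 line 8 members (23.5%) passed, against 8.05% of all genes, and in the vector line 1 (2.94%), against 3.38%. In the NOD1 line these were BLVRB at 0.25, TXNRD1 at -0.19 and TKT at -0.23. Of the 34 members, 30 lay between the 5th and 95th percentile of all genes' DOX differences in the NOD1 line, 26 in the NLRP4 line and 31 in the vector line. In the NLRP4 line 5 members lay below that band and 3 above it. AKR1C1 had 8.20, 8.00, 8.19 and 8.19 in the NLRP4 line with DOX, against 8.78, 8.74, 8.88 and 8.54 in that line without DOX. The difference of -0.59 (SE 0.161, unadjusted p = 0.00123, adjusted p = 0.345) had the lowest p of the members in that line. All arrays with DOX lay below those without DOX, as did those of NQO1 at -0.35 (SE 0.166, unadjusted p = 0.0482, adjusted p = 0.619). The other members under that p in the NLRP4 line were GCLC at -0.48, ME1 at -0.35, GSTP1 at 0.39, GPX1 at 0.34, PRDX2 at 0.30 and BACH1 at 0.23, and in the vector line BACH1 at 0.26. NFE2L2 differed by -0.20 (adjusted p = 0.873) in the NOD1 line with DOX relative to no DOX, and by 0.15 (adjusted p = 0.999) in the vector line.

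The DOX effects were also set against each other. With limma, no member was called for a DOX effect that differed between the NOD1 and vector lines (0.00543% of all genes called), between the NLRP4 and vector lines (0.00543%) or between the NOD1 and NLRP4 lines (0.0109%). At an unadjusted p under 0.05 there were 2 members (5.88%) in the first, where 4.05% of all genes passed. There were 0 in the second (4.92% of all genes) and 5 (14.7%) in the last (8.01% of all genes). AKR1C1 gave the lowest p in both comparisons with the NOD1 line, at 0.57 (SE 0.228, unadjusted p = 0.0196, adjusted p = 1) against the vector line and 0.88 (SE 0.228, unadjusted p = 8e-04, adjusted p = 0.372) against the NLRP4 line. The AKR1C1 difference between the NOD1 and vector lines was thus 2.10 with DOX and 1.53 without DOX, and the gap between these values was not called. The second AKR1C1 probe set, normalized over all probe sets, gave 0.16 with DOX and 0.45 without DOX. Its gap ran the other way, so the direction for AKR1C1 rests on the probe set used. NFE2L2, called lower in the NOD1 line with DOX and not without DOX, gave -0.34 (SE 0.147, unadjusted p = 0.0285, adjusted p = 1) for the difference of these effects, so the difference between the calls was not itself called. In simulated data, the comparison of DOX effects between the NOD1 and vector lines recovered 3.2% of log2 changes of 0.3 and 24.2% of 0.5. A missing call there does not show that the DOX effects were equal.

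**Figure D5:**
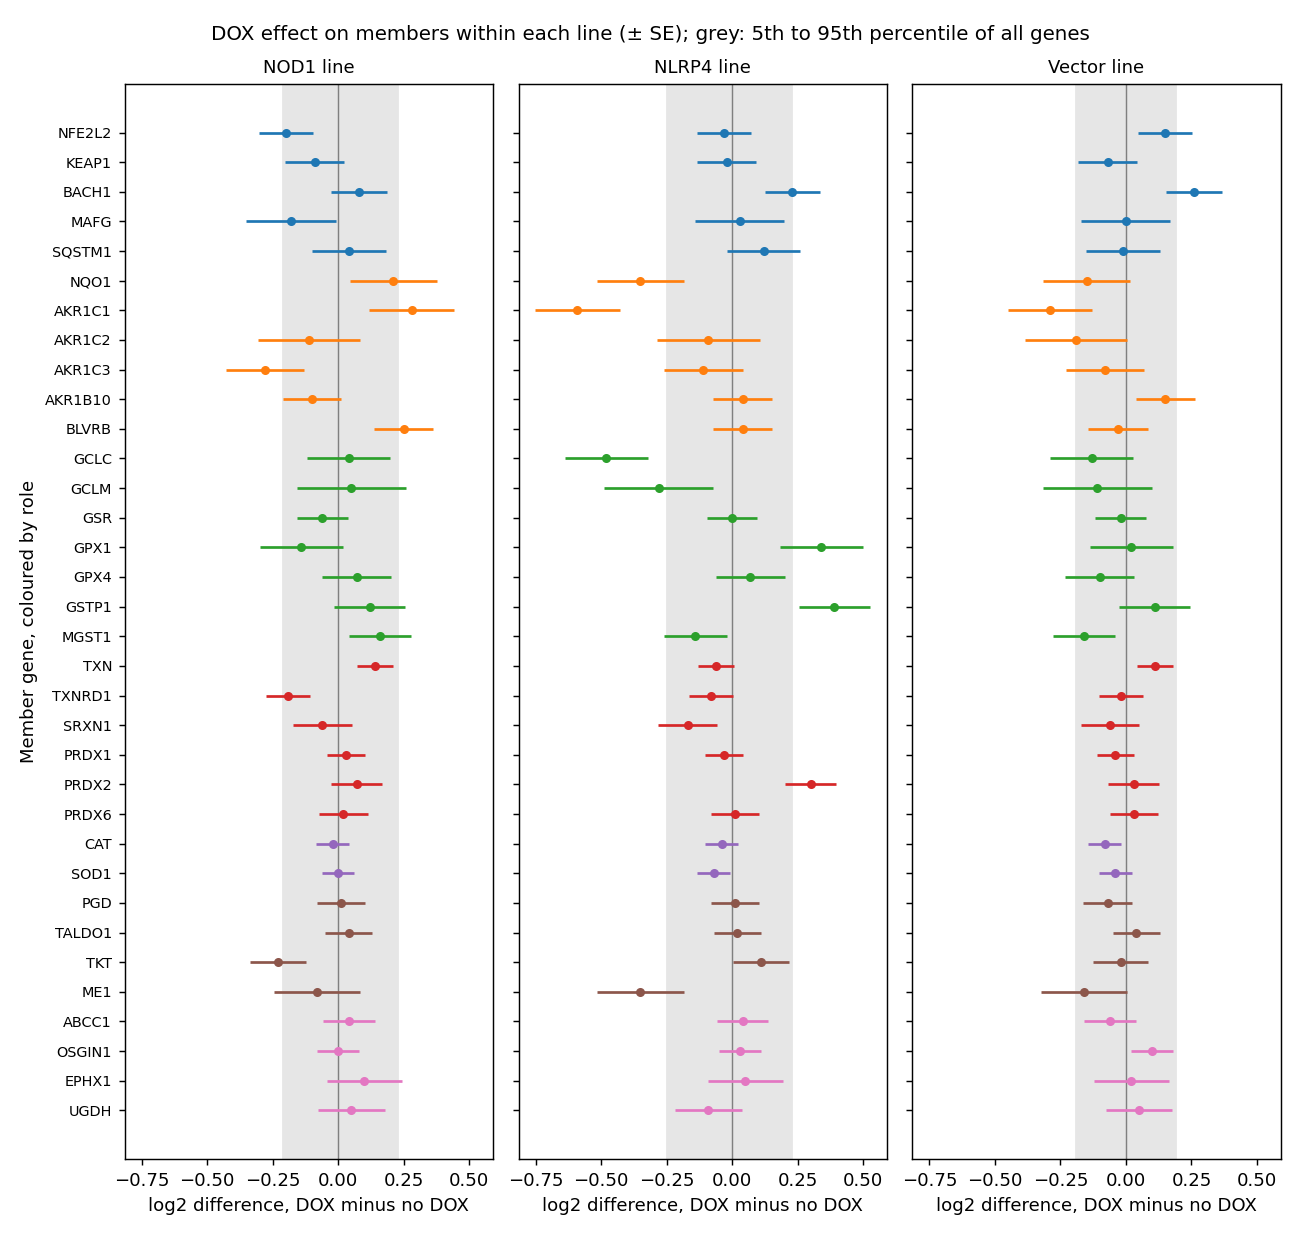
Log2 difference of DOX minus no DOX for each of the 34 members in the NOD1, NLRP4 and vector lines (points ± SE, 4 arrays per group), with the 5th to 95th percentile of all genes in grey. Of 34 members, 30 lie inside the grey band in the NOD1 line, 26 in the NLRP4 line and 31 in the vector line.

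Genes around the set were counted from lists of other members of the same pathways, to be read against the 13.6% of all genes higher and 12.2% lower with DOX and the 13.0% higher and 11.9% lower without DOX. Of 16 other NRF2 targets measured, 4 were higher and 1 lower in the NOD1 line than in the vector line with DOX, and 5 were higher and 1 lower without DOX. The median over them was 0.08 with DOX and 0.00 without DOX, close to that of all genes. SLC7A11, the cystine importer that feeds glutathione synthesis, differed by 1.61 (SE 0.198, adjusted p = 1.68e-06) with DOX and 1.35 (SE 0.198, adjusted p = 1.58e-05) without DOX. FTL, the ferritin light chain, differed by 1.08 (SE 0.083, adjusted p = 2.47e-09) with DOX and 0.74 (SE 0.083, adjusted p = 4.73e-07) without DOX. TXNIP, an inhibitor of thioredoxin, differed by 1.11 (SE 0.079, adjusted p = 1.06e-09) with DOX and 1.10 (SE 0.079, adjusted p = 1.07e-09) without DOX, and the efflux pump gene ABCC4 was lower, at -0.51 and -0.22. The counts did not sort the list by whether NRF2 raises or lowers a gene. A higher level of TXNIP is therefore not read as induction by NRF2. HMOX1 (haem oxygenase), named here after its values were seen, was not called, at 0.04 (adjusted p = 0.852) with DOX and -0.08 (adjusted p = 0.677) without DOX.

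Of 16 other regulators, 4 were higher and 4 lower with DOX, and 6 were higher and 5 lower without DOX, where 25.8% of all genes were called with DOX and 24.9% without DOX. NFE2L1, a relative of NRF2 that binds the same elements, was higher by 0.66 (SE 0.123, adjusted p = 0.000224) with DOX and 1.07 (SE 0.123, adjusted p = 7.69e-07) without DOX. CUL3, the ubiquitin ligase scaffold that works with KEAP1, was lower, at -0.42 (SE 0.074, adjusted p = 0.000146) with DOX and -0.38 (SE 0.074, adjusted p = 0.000388) without DOX. CHD6, a chromatin remodeller, was lower as well (-0.55 and -0.48), while the coactivator CREBBP was higher (0.48 and 0.46).

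Of 33 other antioxidant enzymes, 11 were higher and 2 lower with DOX, and 8 were higher and 1 lower without DOX, with medians of 0.09 and 0.11, where 13.6% of all genes were higher with DOX and 13.0% without DOX. SESN3, a stress-induced sestrin, was higher by 0.87 (SE 0.088, adjusted p = 1.27e-07) with DOX and 0.84 (SE 0.088, adjusted p = 1.92e-07) without DOX, the mitochondrial glutaredoxin GLRX2 by 0.43 and 0.41, and the glutathione synthetase GSS by 0.62 and 0.46. Of 22 other pentose phosphate and NADPH genes, 3 were higher and 1 lower with DOX and 3 were higher and 2 lower without DOX, with a median of 0.05 in each. These counts are near or under the shares of all genes, 13.6% higher and 12.2% lower with DOX and 13.0% higher and 11.9% lower without DOX, so they are no result about the list. IDH2, the mitochondrial NADPH-dependent isocitrate dehydrogenase, was higher by 0.81 (SE 0.115, adjusted p = 1.11e-05) with DOX and 0.78 (SE 0.115, adjusted p = 1.84e-05) without DOX. RPE, the ribulose-phosphate epimerase between PGD and the non-oxidative branch, was lower, at -0.45 (SE 0.1, adjusted p = 0.00143) with DOX and -0.62 (SE 0.1, adjusted p = 5.59e-05) without DOX. PGD and TALDO1, on either side of RPE in the pathway, were higher in the same comparisons.

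The NADPH oxidase, which spends NADPH to make superoxide in phagocytes, was counted in the same way. Of 6 measured genes, 3 were higher and none lower in each comparison, with medians of 0.56 with DOX and 0.65 without DOX. Of all genes, 13.6% were higher with DOX and 13.0% without DOX. The phagocyte subunits CYBA, NCF4 and RAC2 differed by 0.54 (adjusted p = 0.00171), 0.95 (adjusted p = 6.7e-05) and 0.58 (adjusted p = 0.000752) with DOX and by 0.71 (adjusted p = 0.000105), 0.68 (adjusted p = 0.00224) and 0.64 (adjusted p = 0.000306) without DOX. No gene of these 5 lists was called between the NLRP4 and vector lines, with or without DOX. Of all genes, only 0.0380% were called there with DOX and 0.0163% without DOX, so this is no result about the lists. The lists were chosen with earlier results of these data known, and the myeloid markers given above moved in the same direction as the NADPH oxidase genes, a part in the result that was not tested.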

How the data were processed

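The authors deposited 1 log2 signal per probe set and array. RMA and oligo are named in the submitters' processing notes without a version or settings, and a genome build is not given in the sources used here. Of 33297 probe sets, 19460 had 1 gene symbol, 1754 had several and 12083 stayed unnamed here. Entrez IDs brought symbols up to date (19429 matched) with the RefSeq gene table of GRCh38.p14. The single-symbol probe set of highest mean stood for a gene, which gave 18417 genes, 769 of them with more than 1 such probe set. Deposited array medians differed, so the gene table was quantile-normalized. Group means of 6 groups were fitted over 24 arrays (18 residual degrees of freedom) with limma 3.58.1 in R 4.3.3, and p-values were adjusted by Benjamini-Hochberg over all genes and called under 0.05. The scripts were tested on simulated data. Groups are those of the labels. Per-array values are given for the 5 regulators and for members called at 1.5-fold or more between the NOD1 and vector lines, and others where a result turns on them. From each surrounding list, named genes came from the called genes of lowest p. The members and the lists were chosen with earlier results of these data known. Alternatives changed the normalization, the probe set, the arrays in the fit, the weights, the prior and the filter on dim genes. The number of arrays limits the precision.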

Additional observations from a re-analysis of the deposited data

Results flagged for a closer look

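Of 204 sets of 4 arrays (34 members in 6 groups), 12 held an array set apart from the other arrays of its group, by a gap to the nearest array, as a share of the group's range, above Dixon's 95% critical value. Chance gives about 1 in 20 such sets. In the NOD1 line with DOX this was PRDX1 on array 3, at 13.90 against 13.79 on the nearest array (0.924 of the range). In the NOD1 line without DOX, BACH1 on array 2 was at 9.78 against 10.07 (0.957) and AKR1C1 on array 1 at 9.20 against 9.85 (0.933), still above all arrays of the vector line. In the NLRP4 line with DOX, array 1 stood apart for BACH1 at 10.97 against 10.70 (0.843), for AKR1C2 at 8.75 against 8.26 (0.927) and for PRDX6 at 13.04 against 12.99 (0.882). Array 2 of that group stood apart for MAFG at 9.90 against 9.47 (0.846) and for AKR1C1 at 8.00 against 8.19 (0.923). In the NLRP4 line without DOX, array 3 stood apart for AKR1C2 at 8.08 against 8.56 (0.895), for AKR1B10 at 6.17 against 6.38 (0.854) and for PRDX1 at 13.26 against 13.50 (0.908). In the vector line without DOX, GCLC on array 1 was at 9.78 against 10.14 (0.87).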

How the results depend on the processing

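The counts of called members stayed within 1.5 times in all 12 comparisons under 10 alternatives, except 12 against 19 between the NOD1 and vector lines without DOX with arrays centred on their medians. Leaving out single arrays gave 17 to 21 called members between the NOD1 and vector lines with DOX, lowest without NOD1 array 3, and 14 to 20 without DOX, lowest without NOD1 array 2. Against the NLRP4 line the ranges were 20 to 23 with DOX and 19 to 22 without DOX, and in the other 8 comparisons 0 to 0. The deposited array median as a covariate, added after seeing the data, gave 20 called members with DOX and 20 without DOX against the vector line. None of 83 member calls changed direction. No paired analysis was possible because the labels number the arrays uniquely and give the groups no shared replicate numbers. Against the NLRP4 line, the share of all called genes that were higher in the NOD1 line was 52.6% with DOX, against 29.3% with the values as deposited and 66.3% with normalization over all probe sets, and 52.4% without DOX, against 33.8% with centred arrays. The small numbers of arrays, their order and signals near the low end for AKR1C3 and AKR1B10 limit these results. The cause of each lost call was not tested.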
